A study of Mus musculus with 8 samples.

Results

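*Tiam1*, *Eva1c*, *Synj1*, *Paxbp1*, *Ifnar2*, *Il10rb*, *Ifnar1*, *Tmem50b*, *Son* and *Gart* are 10 protein-coding genes that lie beside *Olig2* on mouse chromosome 16, out of 33696 genes counted in the series. They were named by their place near the gene that carries the cre allele, in a choice made with earlier results of these data known, and other genes of the interval are not among them. Their RNA was counted in single nuclei of mouse optic nerve (ON) at postnatal day 120. The 4 control libraries (replicates 1 to 4) came from *Piezo2* f/f females without cre, and the 4 libraries labelled cKO (replicates 10 to 13) from *Olig2-cre;Piezo2* f/f females. Each library pooled 6 ONs of 3 mice. Both groups carry the floxed *Piezo2* allele and were kept on a C57BL/6J background. The cre allele sits in *Olig2* itself and disrupts that copy, and its strain name, B6.129, records a 129 origin. The second group therefore differs from the first by cre and by the *Piezo2* deletion that cre is meant to make. It also differs by the loss of 1 *Olig2* copy and by whatever sequence around *Olig2* came with the knock-in. These differences cannot be told apart in this design. Cre from this allele acts in the oligodendrocyte (OL) lineage and in other cells that once expressed *Olig2*.

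OLIG2 is a basic helix-loop-helix transcription factor that specifies the OL lineage, and *Olig1* beside it encodes a close relative. On one side of this pair lie *Tiam1*, which encodes an activator of the small GTPase RAC1, *Eva1c*, which encodes a transmembrane protein that binds SLIT ligands and heparin, *Synj1*, which encodes a phosphoinositide phosphatase of clathrin-coated vesicle uncoating, and *Paxbp1*, which encodes a protein that binds PAX3 and PAX7. On the other side lie *Ifnar1* and *Ifnar2*, the chains of the type I interferon receptor, and *Il10rb*, a chain shared by the receptors for IL-10, IL-22 and the type III interferons. Beyond them lie *Tmem50b*, which encodes a small membrane protein of the secretory pathway, *Gart*, a trifunctional enzyme of de novo purine synthesis, and *Son*, which encodes a scaffold of nuclear speckles needed for splicing. Genes close to an engineered locus are usually inspected in such crosses, because a flanking interval of the donor strain travels with the knock-in and because an inserted cassette can act on its neighbours.

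The gene starts of the members span the interval from *Tiam1* to *Gart*. In the annotation of GRCm39, *Tiam1* starts 1078 kb before *Olig2*, *Eva1c* 396 kb, *Synj1* 211 kb and *Paxbp1* 178 kb before it, counted along the chromosome. After *Olig2* follow *Ifnar2* at 150 kb, *Il10rb* at 184 kb, *Ifnar1* at 263 kb, *Tmem50b* at 375 kb, *Son* at 425 kb and *Gart* at 425 kb. *Son* and *Gart* are read from opposite strands and share 588 bases. On the strand opposite to *Son*, *Donson*, which encodes a replication fork protein, shares 12855 bases with it, and the non-coding *Gm15964* shares 14930 bases with *Gart* on the other strand. The antisense transcript *Gm36363* lies whole within *Eva1c*, and *4930404I05Rik* overlaps *Synj1* and *Paxbp1* on the other strand. *Gm15965*, also antisense, lies whole within *Synj1*. The sources used here do not state whether counting used strand, so reads from these overlapping pairs may not be told apart.

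The 250 bases before the gene start are shown for *Eva1c*, *Tiam1* and *Synj1*, the members with the lowest unadjusted p between genotypes in OLs. They were read from the GRCm39 sequence, on the strand of the gene. Capitals mark each E-box, here the letters CANNTG, the hexamer that basic helix-loop-helix factors such as OLIG2 bind. The pattern CANNTG is the same on both strands, so a match on either was found and counted once.
Eva1c: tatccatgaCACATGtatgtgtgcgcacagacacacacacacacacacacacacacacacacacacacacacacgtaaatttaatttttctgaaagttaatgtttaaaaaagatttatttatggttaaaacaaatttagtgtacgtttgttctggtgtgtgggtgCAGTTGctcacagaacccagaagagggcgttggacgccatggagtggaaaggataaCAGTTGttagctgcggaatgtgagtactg
Tiam1: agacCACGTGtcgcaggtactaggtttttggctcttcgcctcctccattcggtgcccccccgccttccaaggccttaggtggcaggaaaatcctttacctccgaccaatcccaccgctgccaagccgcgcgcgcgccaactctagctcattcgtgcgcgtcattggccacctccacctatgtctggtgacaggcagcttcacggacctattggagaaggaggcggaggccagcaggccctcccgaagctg
Synj1: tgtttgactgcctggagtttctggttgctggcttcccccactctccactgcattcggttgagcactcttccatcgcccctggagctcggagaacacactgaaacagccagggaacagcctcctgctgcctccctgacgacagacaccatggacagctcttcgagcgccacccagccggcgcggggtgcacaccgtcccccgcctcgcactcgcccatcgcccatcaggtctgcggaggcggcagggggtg

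The *Eva1c* window is chr16:90623357-90623606 on the plus strand, and it holds 3 E-boxes, which start at -241, -85 and -29 from the gene start. The *Tiam1* window is chr16:89941087-89941336 on the minus strand, with 1 E-box at -246, and it overlaps an exon of the antisense transcript *Gm56608*. The *Synj1* window is chr16:90808397-90808646 on the minus strand, holds none and overlaps an exon of *4930404I05Rik*. Of the 10 members, 5 hold at least 1 E-box in this window. The motif is frequent, since 66.5% of the 21431 windows of protein-coding genes hold one. GC content was 41.2% in the *Eva1c* window, 61.6% in that of *Tiam1* and 64.8% in that of *Synj1*.

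The libraries held 39628926 to 56541132 UMIs, and 4590 to 8310 barcodes per library were called nuclei. Of the 48686 called barcodes, 0.563% occurred in more than 1 library, with at most 21 in a pair. Cell types were named from marker genes, so that "OLs" stands for OL-like nuclei by their markers, and the members and all other genes within 10 Mb of *Olig2* were left out of the clustering. In OLs the pituitary marker list summed to 53.9 to 1055 CPM in the control libraries and to 13.4 to 39.9 CPM in those labelled cKO, without overlap, and control replicate 3 held the highest value by far. Results were therefore also computed without replicate 3. *Piezo2* in OLs reached 521 to 569 CPM in the labelled cKO libraries against 391.7 to 506 CPM in control. Counts per gene from the 3-prime end do not show the deleted exons, so this level checks neither the recombination nor the label, and the group is named by its label throughout. *Olig2* in OLs stood at 23.9 to 41.3 CPM in control and 44.3 to 51.6 CPM in the labelled cKO libraries, with a log2 fold change of 0.59 ± 0.15 (SE) and an edgeR adjusted p of 0.246. The counts do not separate the knock-in from the wild-type *Olig2* allele. *Olig1* in OLs had a log2 fold change of 0.61 ± 0.21 (SE) with an edgeR adjusted p of 0.438, and its groups overlapped.

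The levels of the members in each cell type were taken first from the 4 control libraries, as CPM, UMI counts scaled to the same total in every sum. For this, the UMIs of a library were added up over its nuclei of a type, and each type was tested against the mean of the others with edgeR, with the library as a block. A member was called when its adjusted p was below 0.05 and its log2 difference beyond 0.5. Myeloid cells held the highest level of 5 of the 10 members, and OLs held the highest level of none. CPM are not divided by gene length, so levels are compared between cell types for a gene and not between genes.

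Among the receptor genes, *Ifnar2* stood at 226 ± 37.0 CPM (SD, n = 4) in myeloid cells and at 165 ± 21.7 CPM in endothelial cells, without overlap. Fibroblasts and committed OPCs followed at 92.3 ± 8.44 and 91.6 ± 18.6 CPM and did not differ beyond their spread. OPCs came next at 51.8 ± 9.44 CPM, above OLs at 31.5 ± 4.78 and astrocytes at 26.4 ± 5.45 CPM without overlap, while neurons at 30.9 ± 14.1 CPM overlapped all 3. The *Ifnar2* level in myeloid cells was 1.85 ± 0.13 (SE) above the mean of the other types on the log2 scale. *Il10rb* followed the same top order, with 137 ± 25.2 CPM in myeloid cells, 90.2 ± 26.4 in endothelial cells and 56.2 ± 17.1 in fibroblasts, and these neighbours overlapped. *Il10rb* then fell to 18.2 ± 4.20 CPM in OPCs, 10.2 ± 7.26 in committed OPCs, 7.62 ± 1.76 in astrocytes, 4.27 ± 0.818 in OLs and 4.13 ± 3.20 in neurons. Astrocytes lay above OLs without overlap. An upper bound for free RNA was set per sum, from markers of another cell type and the profile of the barcodes not called nuclei. The markers were those of astrocytes in OLs, OPCs and committed OPCs, and those of OLs elsewhere. By this bound free RNA alone could give 65.2% to 132% of the *Il10rb* level in OLs, so that level was not distinguishable from background. In at least 1 library the bound also passed the *Il10rb* level in OPCs (36.1% to 113%), committed OPCs (28.2% to 157%) and neurons (23.9% to 113%), and the *Ifnar2* level in neurons (13.9% to 113%). It did so for *Eva1c* in OPCs (up to 158%) and for *Gart* in committed OPCs (up to 123%). For *Tmem50b* it did so in committed OPCs and endothelial cells (up to 394% and 119%) and in OPCs (82.9% to 277%, median 117%). These ranges cover the libraries of both groups in which the gene had a UMI. In those libraries these levels were not distinguishable from background either. *Ifnar1* stood at 112 ± 7.43 CPM in endothelial cells and 109 ± 32.4 CPM in myeloid cells, which overlapped, and at 44.8 ± 9.50 CPM in fibroblasts, below both. The other types lay between 18.9 ± 4.402 CPM in OPCs and 28.1 ± 5.02 CPM in astrocytes, and each overlapped its neighbour. Of the 3 receptor chains, all 3 were called higher in both myeloid and endothelial cells, and all 3 were called lower in both astrocytes and neurons.

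*Eva1c* and *Tiam1* were also unevenly spread over the cell types. In fibroblasts of control replicates 1 to 4, *Eva1c* stood at 137, 97.8, 132 and 96.1 CPM. Astrocytes of these libraries held 39.8, 33.7, 28.0 and 31.0 CPM. In OLs it reached 4.06, 2.91, 3.90 and 2.75 CPM, the lowest mean of the 8 types. Every fibroblast sum lay above every astrocyte sum, and every astrocyte sum above every OL sum. The log2 difference of *Eva1c* to the other types was 3.29 ± 0.15 (SE) in fibroblasts (edgeR adjusted p = 1.75e-21) and -2.21 ± 0.27 in OLs (edgeR adjusted p = 3.47e-09). Endothelial cells at 24.0 ± 19.6 CPM (SD, n = 4), committed OPCs, neurons, myeloid cells and OPCs lay between astrocytes and OLs, each overlapping its neighbour. For *Tiam1*, neurons led with 165, 133, 130 and 207 CPM in the 4 control libraries, and no other type reached these values. Its log2 difference in neurons was 3.41 ± 0.21 (edgeR adjusted p = 4.78e-17). *Tiam1* was also called higher in OPCs, at 37.4 ± 21.3 CPM, and in myeloid cells, at 38.3 ± 15.95 CPM. It was called lower in fibroblasts, astrocytes and OLs, and the OL level of 4.15 ± 0.430 CPM was the lowest. Between OPCs and OLs, committed OPCs held 16.9 ± 4.08 CPM, and the 4 sums of committed OPCs overlapped those of OPCs but lay above those of OLs. *Synj1* was highest in myeloid cells at 223 ± 21.9 CPM, above neurons at 134 ± 18.8 CPM without overlap, and its other 6 levels lay between 77.4 and 104 CPM. It was called lower in endothelial cells, where control replicate 1 stood at 45.3 CPM and the other 3 at 86.5 to 90.7 CPM.

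Among the remaining members, *Gart* was called higher in myeloid cells, at 113 ± 32.9 CPM (SD, n = 4), and its other levels lay between 27.2 and 35.2 CPM and overlapped. *Tmem50b* was called higher in myeloid cells at 44.7 ± 11.7 CPM, next to endothelial cells at 22.1 ± 9.21 CPM, with overlap. *Son* was highest in astrocytes, at 1095 ± 133 CPM, and lowest in neurons, at 419 ± 95.0 CPM, and each step of its order overlapped the next. *Paxbp1* was called in endothelial cells alone, where it was lower, at 87.5 ± 51.2 CPM, and its large SD in every type is described further on.

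**Figure D1:**
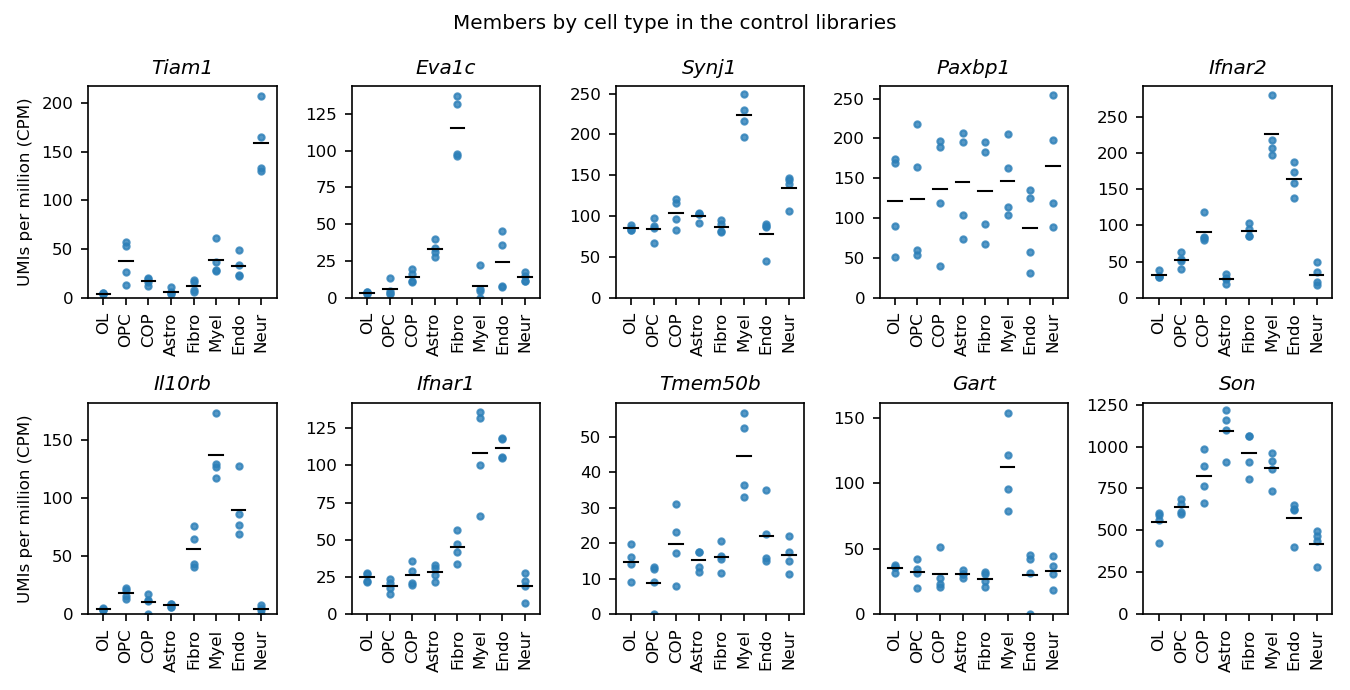
Level of each of the 10 members in CPM (y axes, each starting at 0) in 8 cell types of the control libraries (x axes: OL, OPC, committed OPC as COP, astrocyte, fibroblast, myeloid cell, endothelial cell, neuron). Points are the 4 libraries and bars their means. *Tiam1* stands out in neurons, *Eva1c* in fibroblasts, and *Synj1*, *Ifnar2*, *Il10rb*, *Tmem50b* and *Gart* in myeloid cells, while *Paxbp1* spreads widely within every type.

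By cell type, 7 of the 10 members were called higher and 1 lower in myeloid cells, beside 21.4% and 28.2% of the 10570 genes tested. In OLs, 0 members were called higher and 4 lower, beside 21.1% and 25.1% of all genes, and the 4 were *Tiam1*, *Eva1c*, *Ifnar2* and *Il10rb*. No member of that fit reached an unadjusted p under 0.05 in the higher direction in OLs, and DESeq2 was not run on it. OPCs had 1 higher (*Tiam1*) and 2 lower (*Eva1c*, *Ifnar1*), beside 17.5% and 12.4% of all genes. Committed OPCs had 1 higher (*Ifnar2*) and 0 lower, beside 16.6% and 4.47%, and no unadjusted p under 0.05 in the lower direction. Astrocytes had 2 higher (*Eva1c*, *Son*) and 4 lower, beside 22% and 18.9%. Fibroblasts had 2 higher (*Eva1c*, *Il10rb*) and 2 lower (*Tiam1*, *Gart*), beside 22.7% and 18.8%. Endothelial cells had 3 higher, the receptor genes, and 2 lower (*Synj1*, *Paxbp1*), beside 18.7% and 8.12%. Neurons had 1 higher (*Tiam1*) and 4 lower (the receptor genes and *Son*), beside 25.1% and 20.7%. In mural cells and T cells fewer than 3 libraries per group gave a sum, so these types were not tested.

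The main question was whether the members differed between the libraries labelled cKO and control. The sums of each type were tested with edgeR across all genes, with the same limits on adjusted p and log2 fold change. None of the 59 pairs of member and cell type that passed the filter on low counts was called, in any of the 8 cell types, and 21 pairs did not pass the filter. By estimate 38 of the 59 pairs were higher and 21 lower in the libraries labelled cKO, where 48.2% to 54.3% of all genes tested in a type had a positive estimate. The groups did not overlap in 7 pairs, 4 of them in OLs and 3 in astrocytes. Of all genes, 2.73% were higher and 3.21% lower without overlap in OLs, and 2.02% and 2.61% in astrocytes. P-values measure the spread between pools of mice, and the smallest p of an exact permutation test of 4 against 4 libraries is 0.0286.

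In OLs, 0 of the 10 members were called by edgeR, where 0.0829% of 14484 genes were called. At an unadjusted p under 0.05 the count was 3 (*Eva1c*, *Tiam1* and *Synj1*), beside 8.89% of all genes. DESeq2 called 1 (*Eva1c*), beside 0.352% of all genes. In 3 members (*Eva1c*, *Tiam1* and *Son*) every labelled cKO library lay above every control library, which held for 2.73% of all genes, and in 1 (*Synj1*) every one lay below, which held for 3.21%. The median log2 fold change was 0.15 over the 10 members and 0.02 over all genes tested. Without control replicate 3 edgeR called 0 members in OLs, and *Eva1c*, *Tiam1* and *Synj1* had log2 fold changes of 1.11, 0.76 and -0.27.

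In OLs of control replicates 1 to 4, *Eva1c* stood at 4.06, 2.91, 3.90 and 2.75 CPM. The labelled cKO replicates 10 to 13 held 6.56, 6.38, 8.49 and 7.52 CPM. These rest on 29, 17, 24 and 12 UMIs against 41, 67, 64 and 61 UMIs. All 4 labelled cKO values lay above all 4 control values. The log2 fold change was 1.04 ± 0.21 (SE), with an edgeR adjusted p of 0.156, so it did not pass, while DESeq2 gave 1.04 ± 0.27 with an adjusted p of 0.0248. Over the alternatives the estimate of *Eva1c* lay between 0.94 and 1.73, and its edgeR adjusted p between 0.0509 and 0.362. An *Eva1c* UMI was found in 76 control OL nuclei, 0.952% of them, and in 216 labelled cKO OL nuclei, 1.92%. By library the share was 0.765% to 1.20% in control and 1.61% to 2.79% in labelled cKO, without overlap. Up to 3 UMIs fell in a single nucleus.

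Because *Eva1c* is much higher in fibroblasts and astrocytes, the markers of these types were read in the same OL sums. The fibroblast list, with 12 of 12 markers above 0 in every library, summed to 268 to 344 CPM in control and 237 to 404 CPM in the labelled cKO libraries. The astrocyte list, with 8 of 8 markers above 0, summed to 608 to 766 and 604 to 967 CPM. Both ranges overlapped between the groups. The erythroid list, with 5 of 5 markers above 0, summed to 1371 to 2645 CPM in control and 578 to 1450 CPM in labelled cKO, and the ranges met only through control replicate 3 and labelled cKO replicate 13. In astrocytes it summed to 1423 to 2553 and 533 to 1480 CPM. The pituitary list, lower without overlap in OLs of the labelled cKO libraries as given above, summed in astrocytes to 20.1 to 1848 CPM in control and 4.98 to 14.6 CPM in labelled cKO, also without overlap. The retina list went the other way in OLs, at 3.90 to 8.40 CPM in control and 7.96 to 15.8 CPM in labelled cKO, with overlap. The part of these lists in the members' differences was not tested. The OL nuclei came from 17 clusters, in which the share of control nuclei ran from 22.2% (cluster 12) to 62.3% (cluster 24). The 7 astrocyte clusters ran from 31.1% (cluster 31) to 58.4% (cluster 10), and the part of this unequal make-up in the OL and astrocyte differences was not tested. Within OLs, nuclei with an *Eva1c* UMI held a lower fibroblast list level than those without, at 230 against 298 CPM in control and 227 against 302 CPM in labelled cKO. Their astrocyte list level was 513 against 698 CPM in control, and close to that of the other nuclei in labelled cKO, at 732 against 746 CPM. These levels pool the nuclei of all libraries of a group and have no spread. Those with an *Eva1c* UMI rest on 76 control and 216 labelled cKO nuclei, and the differences were not tested. By the bound above, free RNA could give at most 23.8% to 75.4% of the *Eva1c* level in OLs. With it subtracted the log2 fold change of *Eva1c* was 1.73 ± 0.30 with an edgeR adjusted p of 0.123. In the barcodes not called nuclei, *Eva1c* ranged from 9.72 to 14.0 CPM in control and from 8.44 to 16.3 CPM in labelled cKO, with overlap. The antisense transcript *Gm36363* within *Eva1c* had a log2 fold change of 1.48 ± 0.37 in OLs with an edgeR adjusted p of 0.2503, and its part in the *Eva1c* counts was not tested.

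The *Tiam1* level in OLs was 4.62, 3.93, 4.39 and 3.67 CPM in the control libraries, in the order of their replicate numbers, and 9.28, 7.91, 5.57 and 5.80 CPM in those labelled cKO. The groups did not overlap, and replicates 10 and 11 lay above 12 and 13. The log2 fold change of *Tiam1* was 0.74 ± 0.21 (SE) with an edgeR adjusted p of 0.357 and a DESeq2 adjusted p of 0.249. For an alternative, nuclei were thinned to 1000 UMIs each, and those below that depth were left out. Over all types these were 1027 control and 954 labelled cKO nuclei. With this thinning *Tiam1* in OLs had 0.48 ± 0.40 with an edgeR adjusted p of 0.753. *Synj1* stood at 83.0, 88.6, 85.1 and 83.0 CPM in control and at 69.1, 71.6, 70.6 and 73.2 CPM in the labelled cKO libraries. Both groups of *Synj1* values were narrow, and every labelled cKO library lay below every control library. Its log2 fold change was -0.27 ± 0.08, with an edgeR adjusted p of 0.357 and a DESeq2 adjusted p of 0.124. *Son* stood at 426, 590, 564 and 606 CPM in control and at 610, 627, 706 and 669 CPM in labelled cKO, where control replicate 4 and labelled cKO replicate 10 nearly met. The log2 fold change of *Son* was 0.24 ± 0.12, and without control replicate 1, the lowest, it was 0.15 ± 0.10. The edgeR adjusted p of *Son* was 0.564 and 0.805 in these fits. *Donson*, which overlaps it, had a log2 fold change of 0.33 ± 0.17 in OLs with an edgeR adjusted p of 0.584, and its part in the *Son* counts was not tested.

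The other 6 members overlapped between the groups in OLs. *Ifnar1* ranged from 21.8 to 27.7 CPM in control and from 27.3 to 29.4 CPM in labelled cKO, with a log2 fold change of 0.20 ± 0.11 (SE). *Ifnar2* ranged from 28.0 to 38.5 and from 28.5 to 35.2 CPM, with a log2 fold change of -0.00 ± 0.12. *Il10rb*, at 3.41 to 5.32 and 3.45 to 6.66 CPM, had 0.03 ± 0.26. *Tmem50b*, at 9.10 to 19.7 and 14.4 to 18.7 CPM, had 0.12 ± 0.20. *Gart* ranged from 31.2 to 37.6 and from 33.6 to 40.1 CPM, with a log2 fold change of 0.06 ± 0.10. *Paxbp1*, at 50.9 to 174 and 117 to 162 CPM, had 0.18 ± 0.30, the widest error of the 10.

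**Figure D2:**
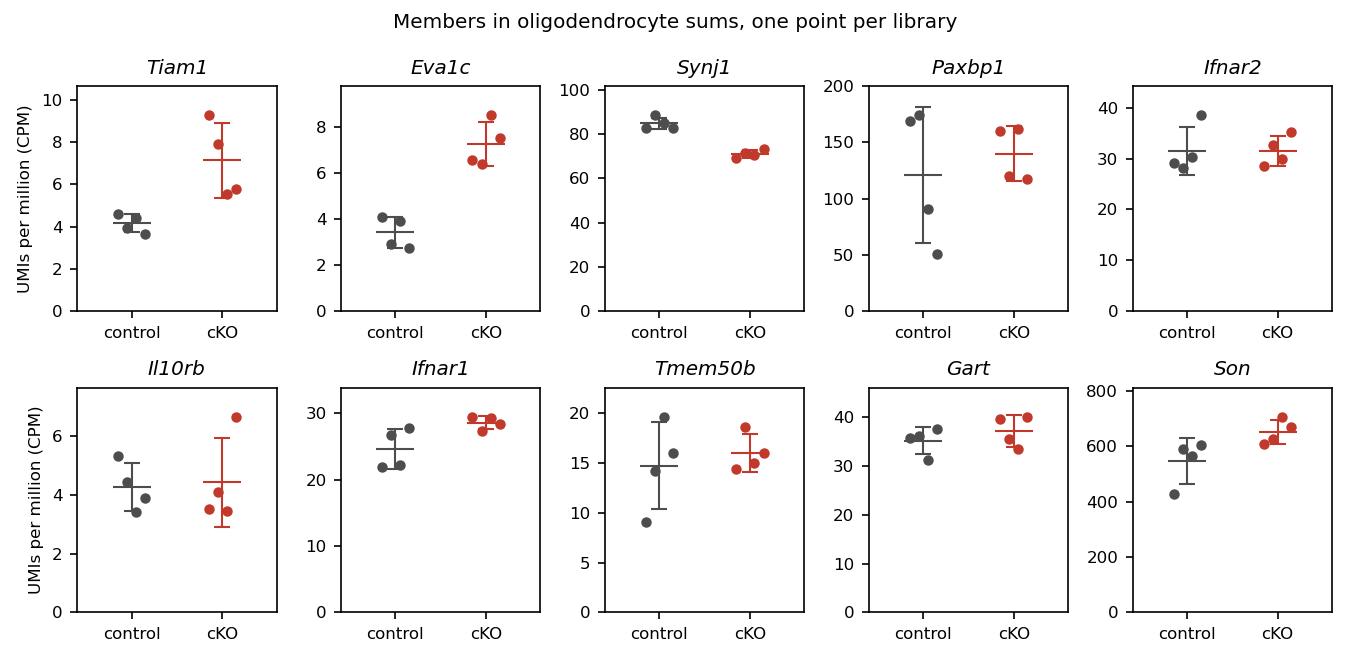
Level of each member in OL sums, in CPM (y axes, each starting at 0), for the control libraries and those labelled cKO (x axes). Each point is a library, horizontal bars are group means, and capped bars show the SD. *Eva1c*, *Tiam1* and *Son* are higher without overlap in the labelled cKO libraries, *Synj1* is lower without overlap, and the 2 lowest *Paxbp1* values belong to control libraries.

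In astrocytes 0 of 10 members were called by edgeR, as were 0% of 14338 genes. DESeq2, which gave an adjusted p for 3 of the 10 (*Synj1*, *Paxbp1* and *Son*), called 0, beside 0.0628% of all genes. At an unadjusted p under 0.05 the count was 2 (*Synj1* and *Son*), beside 7.66% of all genes. *Synj1* stood at 102, 104, 103 and 91.7 CPM in control and at 89.6, 73.4, 79.1 and 86.4 CPM in labelled cKO, again with every labelled cKO library below every control library. Its log2 fold change was -0.29 ± 0.10 (SE) with an edgeR adjusted p of 0.592, and with thinning -0.15 ± 0.17 with an edgeR adjusted p of 0.870. *Synj1* was the only member lower without overlap, which held for 2.61% of all genes. *Son* stood at 909, 1216, 1098 and 1156 CPM in control and at 1340, 1236, 1533 and 1309 CPM in labelled cKO, with a log2 fold change of 0.30 ± 0.12 and an edgeR adjusted p of 0.608. *Il10rb* stood at 6.11, 9.15, 6.08 and 9.15 CPM in control and at 9.32, 13.3, 10.2 and 9.97 CPM in labelled cKO, from 10 to 40 UMIs per library, with a log2 fold change of 0.46 ± 0.22 and an edgeR adjusted p of 0.664. *Son* and *Il10rb* were the 2 members higher without overlap, which held for 2.02% of all genes. Of the *Il10rb* level in astrocytes, free RNA could give 30.4% to 66.2%. *Eva1c* in astrocytes, where it is well counted, ranged from 28.0 to 39.8 CPM in control and from 26.9 to 32.9 CPM in labelled cKO, with a log2 fold change of -0.17 ± 0.14.

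In the other 6 cell types edgeR called 0 members, none had an unadjusted p under 0.05, and DESeq2 called 0. The share of all genes with an unadjusted p under 0.05 was 7.24% in OPCs, 4.57% in committed OPCs and 3.86% in fibroblasts. It was 5.66% in myeloid cells, 4.85% in endothelial cells and 4.87% in neurons. DESeq2 called 0.177% of all genes in OPCs, 0.0242% in fibroblasts and 0.0749% in neurons. It called 0% in committed OPCs, myeloid cells and endothelial cells. In OPCs DESeq2 gave an adjusted p for 1 of the 6 members tested (*Son*), and in the other 5 types for every member tested. In fibroblasts all 10 members were tested, beside 0% of 12378 genes called, and the 10 log2 fold changes lay between -0.08 and 0.28. *Eva1c*, whose highest level was in fibroblasts, ranged there from 96.1 to 137 CPM in control and from 84.0 to 189 CPM in labelled cKO, with a log2 fold change of 0.07 ± 0.22 (SE). In myeloid cells, which held the highest levels of *Ifnar2* and *Il10rb*, 9 members were tested, beside 0% of 6752 genes called. *Ifnar2* had -0.24 ± 0.17 there, *Il10rb* -0.15 ± 0.18 and *Ifnar1* -0.11 ± 0.21. *Eva1c* was too low in myeloid cells to be tested, with 0 to 6 UMIs per library. In endothelial cells, with 0% of 3467 genes called, 6 members were tested, and *Ifnar1* ranged from 105 to 119 CPM in control and from 110 to 197 CPM in labelled cKO, with a log2 fold change of 0.38 ± 0.25 and an edgeR adjusted p of 0.909. In OPCs 6 members were tested, beside 0.306% of 6216 genes called, and *Tiam1* had 0.51 ± 0.33 with an edgeR adjusted p of 0.780. In committed OPCs and in neurons 4 members each were tested, beside 0% of 5314 and 0% of 5344 genes called. *Tiam1* in neurons, its highest type, ranged from 130 to 207 and from 136 to 330 CPM, with 0.46 ± 0.29 and an edgeR adjusted p of 0.997.

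**Figure D3:**
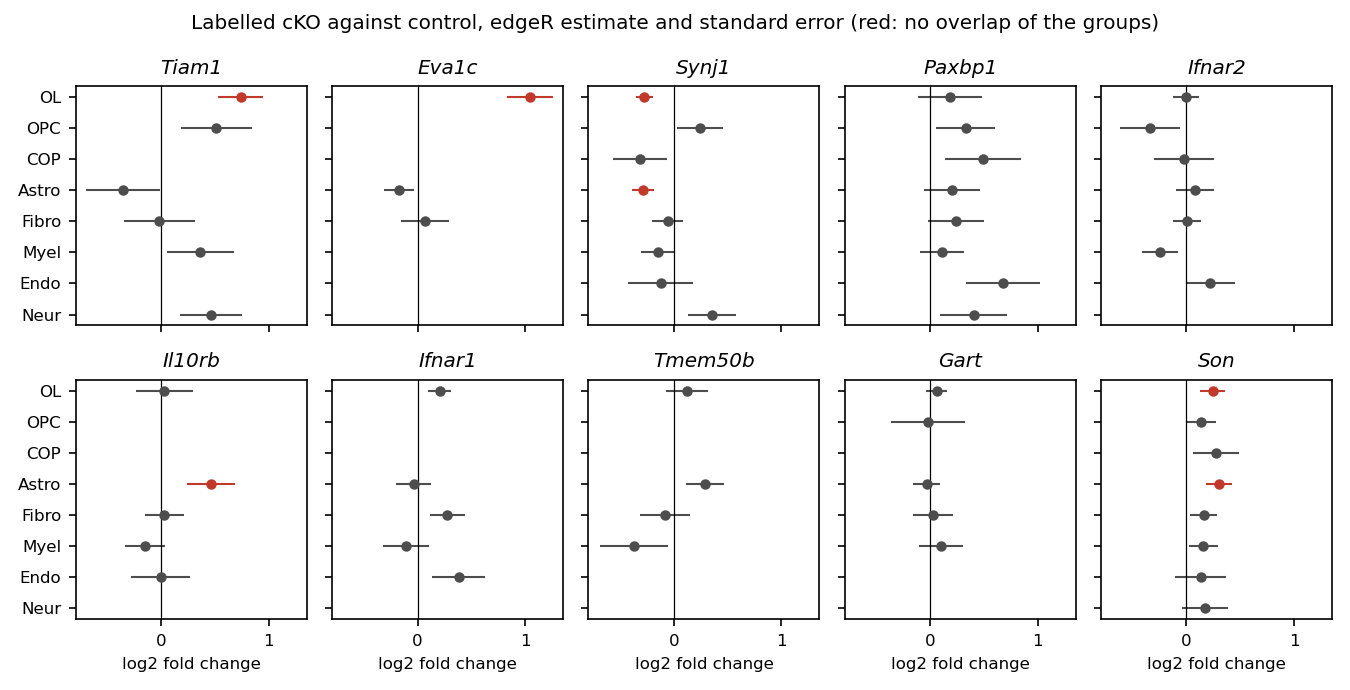
Log2 fold change of the labelled cKO libraries against control (x axes) for each member in each cell type where it was tested (y axes). Points are edgeR estimates, bars are 1 SE, and red marks the 7 pairs without overlap of the groups. *Son* and *Paxbp1* lie above 0 in 8 of 8 types, and no pair was called.

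Across cell types, *Son* had a positive estimate in 8 of 8 types, between 0.13 and 0.30, and *Paxbp1* in 8 of 8, between 0.11 and 0.68. *Synj1* had a negative estimate in 6 of 8 types and a positive one in OPCs and neurons. The sums of a library come from the same mice and share its free RNA, so the 8 types do not repeat the comparison independently.

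Sums over all nuclei, over the barcodes not called nuclei and over all barcodes gave the members' levels in the tissue without cell type names. In these sums fewer cells of a type and less RNA per cell cannot be told apart. Over all nuclei 0 of 10 members were called by edgeR, beside 0.016% of 18789 genes, and 0 by DESeq2, beside 0.138%. An unadjusted p under 0.05 was found for 1 member (*Synj1*), beside 7.45% of all genes. *Synj1* stood at 96.1, 98.2, 101 and 88.8 CPM in control and at 82.2, 79.4, 81.1 and 88.3 CPM in labelled cKO, with a log2 fold change of -0.21 ± 0.08 (SE) and an edgeR adjusted p of 0.666. It was lower without overlap, which held for 2.59% of all genes, although the highest labelled cKO value nearly met the lowest control value. In the barcodes not called nuclei edgeR called 0 members, beside 0.0215% of 18603 genes, and over all barcodes 0, beside 0.0048% of 20851 genes. In both sums 0 members had an unadjusted p under 0.05. The share of all genes below it was 7.54% in the barcodes not called nuclei and 4.82% over all barcodes. DESeq2 called 0 members in both sums, beside 0.247% and 0.153% of all genes in the same order. *Eva1c* had a log2 fold change of -0.03 ± 0.24 over all nuclei and 0.01 ± 0.25 over all barcodes.

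Whether the genotype difference of a member differed between cell types was tested in a model over OLs, astrocytes, fibroblasts and myeloid cells, with the library as a block. For astrocytes against OLs 1 member was called (*Eva1c*), beside 0.086% of 16288 genes. The log2 fold change of *Eva1c* was lower in astrocytes than in OLs by -1.26 ± 0.27 (SE), with an edgeR adjusted p of 0.0430, and an exact permutation test over the 8 libraries gave p = 0.0286. This call did not hold in any of the 12 alternative fits, where the edgeR adjusted p of *Eva1c* lay between 0.06005 and 1 and the estimate between -1.86 and -1.13. *Tiam1* gave -1.04 ± 0.39 for the same contrast with an edgeR adjusted p of 0.868 and p = 0.0286 in the exact permutation test. That p, the smallest such a test can give, or another under 0.05 was reached by 3.51% of all genes for astrocytes against OLs and by 3.27% for fibroblasts against OLs. With thinning *Tiam1* gave -0.54 ± 0.60 for astrocytes against OLs, with an edgeR adjusted p of 1. For fibroblasts against OLs edgeR called 0 members, beside 0.0491% of all genes, and *Eva1c* gave -1.01 ± 0.26 with an edgeR adjusted p of 0.279. For myeloid cells against OLs 0 members were called, beside 0% of all genes, and *Eva1c* there rested on the few UMIs given above. Over the 3 types together 0 members were called, beside 0.086% of all genes, and *Eva1c* had an edgeR adjusted p of 0.107. In the first of these contrasts *Eva1c* and *Tiam1* had an unadjusted edgeR p under 0.05, beside 4.37% of all genes. *Eva1c* had one for fibroblasts, myeloid cells and the 3 types together, beside 5.9%, 5.06% and 5.34%, and DESeq2 was not run on the model.

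*Paxbp1* separated the control libraries from each other rather than the genotypes. In OLs the 4 control libraries held 169, 174, 90.3 and 50.9 CPM, and the labelled cKO libraries 160, 120, 162 and 117 CPM. Control replicates 3 and 4 lay below every other library. In astrocytes *Paxbp1* stood at 196, 207, 104 and 73.4 CPM in control and at 200, 147, 184 and 145 CPM in labelled cKO, in the same arrangement. Control replicates 3 and 4 lay below replicates 1 and 2 in all 8 cell types. The ratio of the highest to the lowest control library was 3.42 in OLs. Among 2607 genes of similar level in OLs (mean CPM within 2-fold), 4 had a ratio as large, 0.153%. They were *Paxbp1* itself, *Prl* and *Gh*, the pituitary hormones of replicate 3, and *Zbtb16*, a zinc finger transcription factor on chromosome 9, which stood at 346, 215, 110 and 86.0 CPM with the same split. A ratio as large as that of *Paxbp1* in the same type was found in 0.379% of genes of similar level in astrocytes (*Paxbp1* ratio 2.82), 0.643% in fibroblasts (2.93) and 0.780% in OPCs (4.08). It was more frequent in committed OPCs at 5.34% (4.91), neurons at 7.60% (2.89), endothelial cells at 10.9% (4.32) and myeloid cells at 16.2% (1.98), and in the barcodes not called nuclei at 6.76% (1.64). The pituitary list in OLs summed to 1055 CPM in control replicate 3, to 53.9 CPM in replicate 4 and to 54.9 and 120 CPM in replicates 1 and 2, and its part in the *Paxbp1* split was not tested. The antisense transcript at its end, *4930404I05Rik*, had a log2 fold change of 1.03 ± 0.26 (SE) in OLs with an edgeR adjusted p of 0.278, and its part in the *Paxbp1* counts was not tested.

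**Figure D4:**
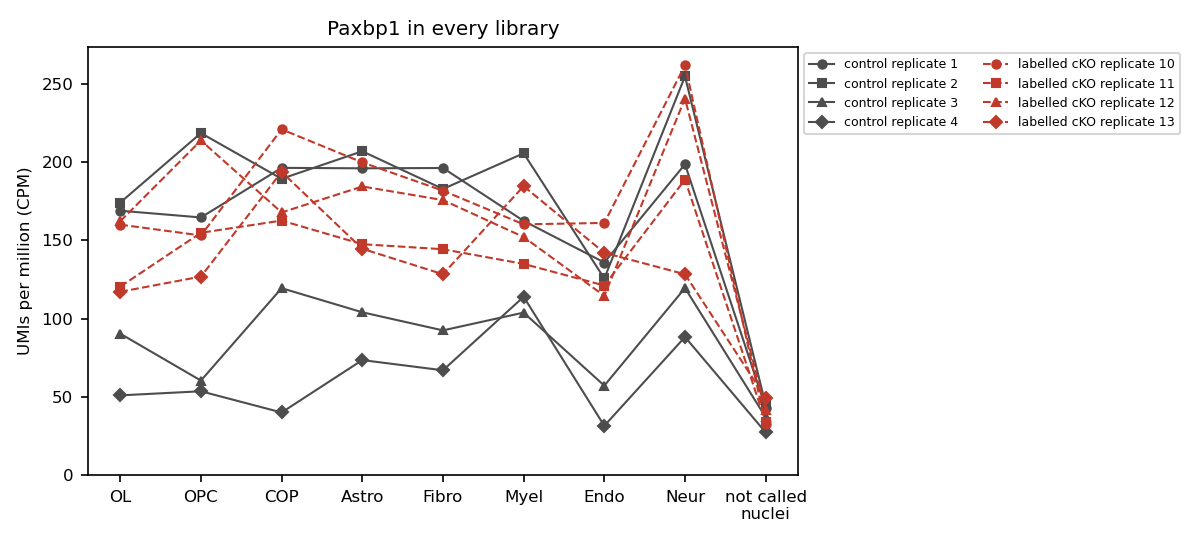
Level of *Paxbp1* in CPM (y axis from 0) in 8 cell types and in the barcodes not called nuclei (x axis). Each line joins the values of a library, in the 2 colours of the groups. Control replicates 3 and 4 run below replicates 1 and 2 in every type, and in OLs and astrocytes the labelled cKO libraries all lie above replicates 3 and 4.

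The members were then set beside the other genes of their interval. Within 5 Mb of *Olig2*, 65 other genes besides *Olig1* were tested in OLs, and edgeR called 2 and DESeq2 called 3. The 2 were the non-coding genes *Gm49688*, 2.63 Mb before *Olig2*, with a log2 fold change of 2.00 ± 0.21 (SE), and *4930420G21Rik*, 2.85 Mb before it, with 0.91 ± 0.10, each with an edgeR adjusted p of 0.0019. The sum over all nuclei holds the same OL nuclei. In it both genes were called as well, with log2 fold changes of 2.18 and 1.09 and an edgeR adjusted p of 0.0225. Both lie further out than *Tiam1*, the most distant member. *Gm33255*, 2.84 Mb before *Olig2*, was called by DESeq2 alone. *4930420G21Rik* was among the genes most raised in OL cluster 13 (42.7% control nuclei), and *Gm33255* in OL clusters 28 (52.9%) and 29 (36.1%). The part of cluster make-up in these differences was not tested. *Olig1*, 47 kb after *Olig2*, had a positive estimate in each cell type where it was tested, from 0.23 in OPCs to 0.86 in fibroblasts. EdgeR called it in none, and its groups did not overlap in fibroblasts and committed OPCs. In the barcodes not called nuclei *Olig1* stood at 299 CPM in control and 459 CPM in labelled cKO, without overlap. DESeq2 called it there (adjusted p = 9.14e-04) and over all barcodes (0.0353), and edgeR did not (0.256 and 0.666). The shares of all genes called in these sums are given above. The part of free RNA in the *Olig1* estimates of the cell types was not tested.

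By distance in OLs, 34 genes were tested within 1 Mb of *Olig2*, 9 members and *Olig1* among them, and edgeR called 0 and DESeq2 1. In 14.7% of these the groups did not overlap, with 4 higher and 1 lower. They were the members *Eva1c*, *Son* and *Synj1*, and *Gm36363* and *4930404I05Rik*, which are antisense to members. At 1 to 2 Mb the share without overlap was 16.7% of 6 genes, and the gene without overlap was the member *Tiam1*. At 2 to 5 Mb, 36 genes were tested and 2 called, and in 19.4% the groups did not overlap. At 5 to 10 Mb the share without overlap was 0% of 23 genes, at 10 to 20 Mb 14.3% of 14 genes, with 2 lower, and over 20 Mb it was 6.09% of 361 genes. The shares did not fall steadily with distance. On the other chromosomes it was 5.90% of 13944 genes, with 2 called higher and 8 lower. Within 1 Mb the share was 12.1% of 33 genes in astrocytes, 3.85% of 26 in fibroblasts, 10% of 10 in committed OPCs and 14.3% of 7 in neurons, and 0% of 13 in OPCs, of 16 in myeloid cells and of 8 in endothelial cells. On the other chromosomes it lay between 2.55% in fibroblasts and 4.65% in astrocytes over these 7 types. In astrocytes it was 0% of 6 genes at 1 to 2 Mb. The genes without overlap within 1 Mb in astrocytes were the members *Son*, *Il10rb* and *Synj1*, and *Donson*. The shares nearest to *Olig2* in OLs and astrocytes therefore hold in large part the members' own differences. These shares are descriptions without a test.

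**Figure D5:**
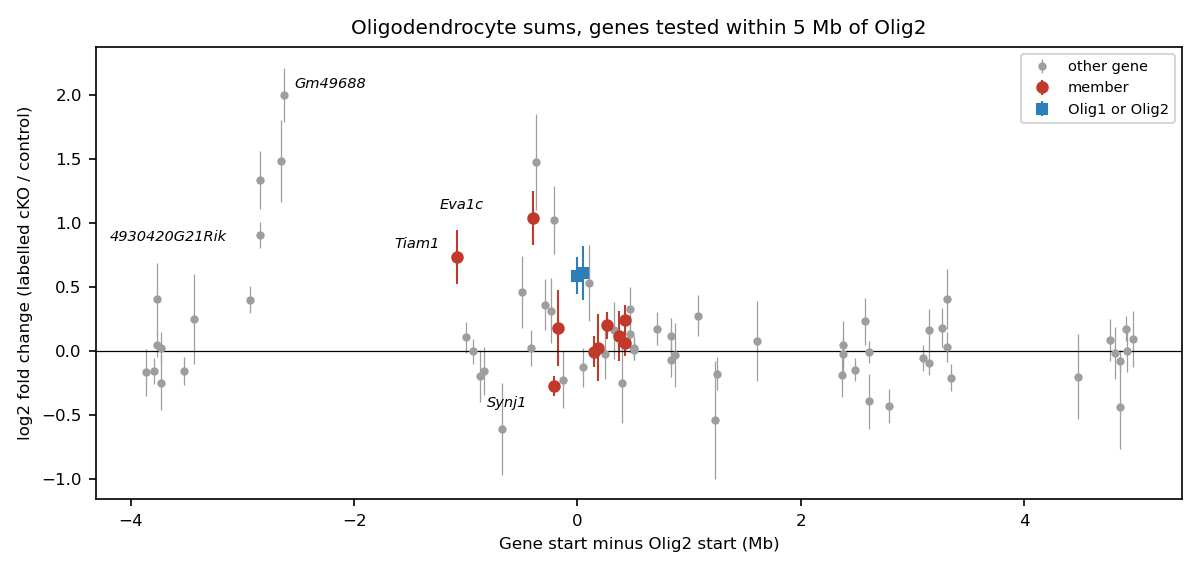
Log2 fold change of the labelled cKO libraries against control in OL sums (y axis, edgeR estimate with 1 SE) against the distance of the gene start from that of *Olig2* (x axis, Mb), for all genes tested within 5 Mb. Red points are members, squares are *Olig1* and *Olig2*, and grey points are other genes. *Eva1c* and *Tiam1* lie highest among the members, and *Gm49688* and *4930420G21Rik*, the genes called, lie on the same side and further out.

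The pathways of the members were read from 6 lists of other genes. *Ifngr2* (receptor signalling), *Itsn1* (clathrin endocytosis) and *Scaf4* (splicing partners of *Son*) lie within 1 Mb of *Olig2* and were kept in them. In OLs their log2 fold changes were 0.16 ± 0.22, 0.03 ± 0.09 and -0.001 ± 0.09 (SE), with overlap of the groups. EdgeR called 0 genes of any of the 6 lists in any cell type, and DESeq2 called 1 gene in all, in OLs, beside 0.352% of all genes. The counts at an unadjusted p under 0.05 in OLs stand beside 8.89% of all genes. In OLs the interferon-stimulated genes had 20 of 26 listed symbols measured, and 2 of the 26 symbols name the same gene. Their median log2 fold change was 0.03 beside 0.02 for all genes, with an unadjusted p under 0.05 in 5 higher and 1 lower. The gene called by DESeq2 was *Ifi27l2a*, an interferon-induced gene of the mitochondrion, with an edgeR log2 fold change of 0.73 ± 0.16 (SE), an edgeR adjusted p of 0.170 and a DESeq2 adjusted p of 0.0122. In fibroblasts the interferon-stimulated genes went the other way, with 0 higher and 4 lower of 22 at an unadjusted p under 0.05 (median -0.18). Endothelial cells had 3 higher and 0 lower of 10 (median 0.18), and myeloid cells 2 and 1 of 13 (median 0.09). The shares of all genes at that p in these types are given above. Receptor signalling, from *Jak1* to *Socs3*, had 11 of 15 genes measured in OLs, with a median of 0.05 and an unadjusted p under 0.05 in 1. De novo purine synthesis, the pathway of *Gart*, had 9 of 12 measured, a median of -0.02 and 0 with an unadjusted p under 0.05. The genes of clathrin endocytosis, in which *Synj1* acts, had 22 of 22 measured and a median of -0.08, with an unadjusted p under 0.05 in 1 higher and 2 lower. The Rac exchange factors and targets of *Tiam1* had 15 of 16 measured and a median of 0.02, with 0 higher and 2 lower. The splicing partners of *Son* had 14 of 14 measured and a median of 0.09, with 1 higher and 1 lower. In astrocytes the counts at an unadjusted p under 0.05, beside 7.66% of all genes, were 1 higher and 0 lower of 12 receptor signalling genes (median 0.06), 3 and 1 of 22 interferon-stimulated genes (median 0.03), and 1 and 3 of 15 Rac exchange factors and targets (median -0.18). They were 0 and 0 of 10 purine genes (median 0.08), 0 and 1 of 22 endocytosis genes (median -0.05) and 0 and 1 of 14 splicing partners (median 0.07), beside a median of 0.01 for all genes. Of these, *Socs3*, a feedback inhibitor of cytokine signalling, had 0.77 ± 0.22 with an edgeR adjusted p of 0.539, and the Rac exchange factor *Trio* had -0.32 ± 0.10 with an edgeR adjusted p of 0.552.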

How the data were processed

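Nuclei of pooled mouse ONs were profiled in 8 libraries with a droplet kit that reads the 3-prime end of transcripts. The authors counted UMIs with Cell Ranger 7.0.0 on GRCm39, and the deposited values are raw counts for every barcode. The removal of ambient RNA, filtering and doublet removal of the study's methods are not part of them. Nuclei were called here by UMI number and, from 500 UMIs upward, by a profile unlike that of empty droplets (false discovery rate 0.01). Those with under 200 genes or over 5% mitochondrial counts, and the top scores for doublets (2.87% to 5.24% per library), were removed. Outliers in UMIs, genes or the share of the top genes (5 median absolute deviations) or in mitochondrial share (3) were removed too. Clusters were computed with scanpy 1.11.5 and named from marker lists by rules set after the clusters were seen. Clusters that these rules left unnamed held 3300 nuclei, which entered no cell type sum. The counts of each cell type were added up by library, for sums of at least 10 nuclei and 1000 counts, and tested with edgeR 4.0.16 in R 4.3.3 (glmQLFit, glmQLFTest, TMM, filterByExpr). DESeq2 1.42.0 was the alternative. Adjusted p-values are Benjamini-Hochberg values over all genes of a comparison, standard errors follow from the F statistic, and tests of a single value are exact permutation tests, two-sided. Sums of OLs held 4361253 to 10494398 counts and those of committed OPCs 85996 to 332102, so values in the smaller types are less precise. Of the 33696 genes, 98.5% matched the annotation. The steps were tested on simulated counts.

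The members, the gene lists and the tests were chosen with earlier results of these data known. Named genes were the 10 members, other genes within 5 Mb of *Olig2* that were called, and genes of the lists that were called plus at most 4 others. *Olig2*, *Olig1* and *Piezo2* were named as planned checks of the alleles, which their counts could not give. *Gm36363*, *4930404I05Rik*, *Gm15964*, *Gm15965*, *Donson*, *Gm33255*, *Gm56608*, *Zbtb16*, *Prl*, *Gh*, *Ifngr2*, *Itsn1* and *Scaf4* were named after their values or positions were seen.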

Additional observations from a re-analysis of the deposited data

Results flagged for a closer look

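In 178 groups of 4 libraries (a member in a cell type or sum within a genotype), the highest and lowest values were checked against the rest by Dixon's criterion, and 4 stood apart, or 2.25%. Chance alone sets apart about 5% of such groups. *Ifnar2* in committed OPCs stood at 119 CPM in control replicate 3 (119.4), with the others at 80.3 to 83.9 CPM. In endothelial cells of control replicate 1, *Synj1* stood at 45.3 CPM, with the others at 86.5 to 90.7 CPM, and *Son* at 399.9 CPM, with the others at 619 to 653 CPM. *Tiam1* over all nuclei stood at 14.3 CPM in the labelled cKO replicate 13, with the others at 13.3 to 13.4 CPM.

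The genotype difference of *Eva1c* differed between astrocytes and OLs by -1.26 on the log2 scale (astrocytes minus OLs), tested as an interaction in edgeR with an adjusted p of 0.0430. Its estimate kept its direction in the 12 alternative fits, and none of them called it.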

How the results depend on the processing

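No paired analysis was possible because the groups share no replicate number. The contrasts between cell types within libraries had the library as a block. Of 238 counts of members under alternatives (DESeq2, other scaling, no filter on low counts, no limit on fold change, chromosome 16 left out of the scaling, no doublet removal, free RNA subtracted, thinning, each library left out), 223 stayed, small shifts included, and 15 moved. As an example of small shifts, the count of member and cell type pairs called in control libraries was 36 and ran from 31 to 38. In OLs, DESeq2 called 1 member where edgeR called 0, and 51 genes of all where edgeR called 12. For astrocytes against OLs, 1 member was called with the block, and 0 with no replicate block, with RLE normalization, with free RNA subtracted and with thinning. With a library left out the count was 0 to 0. With unadjusted exact permutation p-values it was 2 for astrocytes against OLs and 1 for fibroblasts against OLs, where edgeR called 0, beside 3.51% and 3.27% of all genes. Of 1418 single values by genotype, 1417 kept their side of the threshold and 94 that were not called changed sign, and of 544 values by cell type 510 kept it, 21 lost and 13 gained a call. No called value changed sign.

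Low counts limit *Eva1c*, *Tiam1* and *Il10rb* in OLs, and small sums limit OPCs, committed OPCs, endothelial cells and neurons, where 4 to 6 members were tested.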
